A study of Mus musculus with 2 samples.

Results

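The genes described here are 34 genes of glycolysis and of the response to low oxygen, out of 27635 genes in the count table of a mouse tumour. The members were taken from a list of names, and all 34 were found in the table. The list holds 17 genes of the glycolytic route, from the hexokinases Hk1 and Hk2 to lactate dehydrogenase A (Ldha), and 17 genes linked to low oxygen, from Pdk1 to Mxi1. Each was followed over the cell states of 1 single-cell library, with 11318 barcodes kept of 12016.

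Glycolysis breaks glucose down to pyruvate, and Ldha turns pyruvate into lactate so that the route can go on with little oxygen. When oxygen is scarce, the prolyl hydroxylases encoded by Egln1 and Egln3 no longer mark the factor HIF-1 alpha (Hif1a) for decay, and HIF raises the transcription of most glycolytic enzymes and of genes such as Vegfa, Bnip3, Car9 and the hydroxylase gene Egln3 itself. In tumours, both cancer cells and infiltrating myeloid and T cells are known to use this programme, and T cells also raise glycolysis on activation.

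The cells came from B16F10 tumours, a mouse melanoma line grown under the skin, taken 14 days after transplantation and enriched for cells bearing CD3. Wild-type and Nr4a knockout cells were marked with 6 hashtags and captured together on the BD Rhapsody system, with cDNA amplified by the TAS-Seq method. The series concerns the orphan nuclear receptors Nr4a1 and Nr4a2 and precursors of exhausted CD8 T cells. The labels do not say which hashtag marks which genotype, which mice were used, how many mice each hashtag held or how the deletion was made, so no comparison of genotypes was made here. Every value is from 1 library without replicates, so no p-value is given. The hashtags A0301 to A0306 are samples of unknown group and only show how far a value moved within the capture. Where groups of hashtags are said not to overlap, the share of all genes that did the same was not counted.

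Barcodes kept held 4142 to 892142 counts each, with a median of 26436. By markers, 8024 cells were T cell-like, 1567 macrophage-like and 1015 melanoma-like. Smaller clusters held 267 dendritic cell-like, 139 neutrophil-like and 26 fibroblast-like cells, and 280 shallow cells stayed unnamed, although melanoma markers stood at 24097 CPM in them. The enriched T cell label held for most but not all cells: all 8 T cell markers were detected in CD8 cells, at a summed 6144 CPM (counts per 1000000 counts), against 79.5 CPM in melanoma-like cells. The 7 melanoma markers summed to 30637 CPM in melanoma-like cells and to between 160 and 297 CPM in the T cell states. The 11 macrophage markers summed to between 50.4 and 298 CPM in the T cell states, to 14375 CPM in macrophages and to 1425 CPM in melanoma-like cells. Macrophage-like cells carried T cell markers at 2267 CPM. A hashtag was called for 46.8% of T cells, 80.5% of macrophages and 83.4% of melanoma-like cells.

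Cells were sorted by gates, where 5 counts of a gene were enough to hold it. CD8 cells (Cd8a or Cd8b1 without Cd4) numbered 4124. Among CD8 cells without the cycling genes Mki67 and Top2a, 482 had Tcf7 without Havcr2 and Pdcd1, 83 had Tcf7 with Pdcd1, 173 had Gzmk, 65 had a Ly49 receptor gene without Pdcd1, and 575 had Havcr2 without Tcf7. The Tcf7+ Pdcd1+ cells carry the markers of precursors of exhausted cells, and Havcr2 (TIM-3) is a marker of terminal exhaustion. Of the 575 Havcr2+ cells, 105 had any of the granzyme genes Gzmc to Gzmf. A further 1480 CD8 cells were cycling, and 1253 passed none of the gates. CD4 cells outside the cycle were split into 171 with and 535 without Foxp3, the regulatory T cell factor. Macrophages were split into 165 with Arg1 (arginase, typical of a tissue-repair state), 688 with Cxcl9 (an interferon-induced chemokine), 70 with both and 644 with neither.

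A member was examined in a comparison when its mean over both arms reached 10 CPM and at least 20 cells had it at 5 counts. It was called when its log2 ratio, computed after adding 5 CPM to each arm, was at least 1 in size, that is 2-fold. The pseudocount makes this ratio understate the change of low genes. Intervals in brackets are exact 95% intervals, Poisson for levels and binomial for shares of cells. They cover counting error only, since several counts can come from 1 RNA molecule.

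HIF binds DNA at a short core, ACGTG or GCGTG, and the members were set beside that core to show what their start regions share. The table of promoters from RefSeq (build GRCm38.p6) matched 32 of the 34 members, Ero1l under the symbol Ero1a. The unmatched members were Bnip3l and Ndrg1. Of the 32, 24 (75.0%) held ACGTG or GCGTG, on either strand, in the 250 bases before the start, with a median of 2 matches. The start is the first that RefSeq lists for a gene. For some members, such as Ldha and Ankrd37, the window lies inside the gene as GENCODE M21 places it. The share was 38.6% over all 27025 promoters and 58.8% over the 7117 promoters of genes at 10 CPM or more in this library. The members' promoters had a median GC content of 62.8%, against 52.0% over all promoters and 60.0% in the expressed set, and the part of base composition in the difference was not tested. No match was found for Hk1, Gpi1, Aldoa, Tpi1, Eno2, Pkm, Vegfa and Mxi1 in this window. The core overlaps the E-box CACGTG bound by other factors, which was present in the windows of Pfkm, Ldha, Bnip3 and Hif1a.

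Stretches for 4 members are printed because 3 of them, Bnip3, Egln3 and Ankrd37, were called higher in Arg1+ macrophages, and Pgk1 followed the members' mean most closely over the states. Capitals mark ACGTG or GCGTG on either strand, so CACGT and CACGC are the cores read on the other strand, and each stretch ends before the first base that GENCODE M21 places in an exon. Bnip3 lies on the minus strand and the stretch spans chr7:138909520-138909756, with 5 matches, of which a pair overlaps in CACGTG. Egln3, on the minus strand, spans chr12:54203875-54204124 with 1 match. Ankrd37, on the minus strand, spans chr8:45999868-46000100 with 3 matches, of which a pair overlaps. This stretch lies inside the GENCODE gene, which reaches base 46005707. Pgk1, on the plus strand, spans chrX:106186850-106187099 with 2 matches.
Bnip3: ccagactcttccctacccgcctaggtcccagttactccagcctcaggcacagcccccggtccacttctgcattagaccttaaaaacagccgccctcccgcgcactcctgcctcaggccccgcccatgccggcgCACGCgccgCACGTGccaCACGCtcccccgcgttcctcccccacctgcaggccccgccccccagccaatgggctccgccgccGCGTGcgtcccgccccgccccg
Egln3: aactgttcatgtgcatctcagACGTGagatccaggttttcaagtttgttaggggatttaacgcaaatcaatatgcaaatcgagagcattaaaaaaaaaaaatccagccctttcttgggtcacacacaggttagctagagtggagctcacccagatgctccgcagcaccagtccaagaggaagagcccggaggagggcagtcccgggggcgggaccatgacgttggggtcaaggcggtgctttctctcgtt
Ankrd37: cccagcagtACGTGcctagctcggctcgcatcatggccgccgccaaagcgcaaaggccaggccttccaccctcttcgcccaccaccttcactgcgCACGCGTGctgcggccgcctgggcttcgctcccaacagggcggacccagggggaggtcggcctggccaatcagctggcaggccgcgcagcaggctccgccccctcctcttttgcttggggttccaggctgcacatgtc
Pgk1: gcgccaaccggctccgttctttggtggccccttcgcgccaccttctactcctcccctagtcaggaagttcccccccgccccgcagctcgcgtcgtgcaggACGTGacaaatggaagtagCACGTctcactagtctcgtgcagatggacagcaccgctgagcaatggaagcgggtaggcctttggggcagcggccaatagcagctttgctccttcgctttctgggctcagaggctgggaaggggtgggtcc
A match is a run of letters and not a measured binding site. Egln3, which showed the largest ratio between macrophage states, held fewer matches than Bnip3 and Ankrd37.

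Over 16 cell states, the members were lowest in Tcf7+ CD8 cells without Pdcd1 and highest in melanoma-like cells. The mean z-score of the 29 members with enough counts was -1.14 in the former and 1.43 in the latter. Ly49+ Pdcd1- CD8 cells (-0.69) and Tcf7+ Pdcd1+ CD8 cells (-0.64) came next above the lowest, and Arg1+ macrophages (0.76) and macrophages with both Arg1 and Cxcl9 (0.82) next below the highest. Among the T cell states scored, Foxp3+ CD4 cells stood highest, at 0.36 outside and 0.34 in the cycle. The Havcr2+ CD8 cells without (0.02) and with (0.004) Gzmc to Gzmf followed. Cycling Foxp3- CD4 cells (179) and Tcf7+ Havcr2+ CD8 cells (13) were not scored, so Foxp3+ cells in the cycle were not set against their Foxp3- counterpart. The score is a description of pooled counts and has no replicate error. Cxcl9+ macrophages (-0.23), macrophages with neither gene (-0.20), Foxp3- CD4 cells (-0.16), Gzmk+ CD8 cells (-0.15) and cycling CD8 cells (-0.13) lay close together, and no order among them is read from it.

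**Figure D1:**
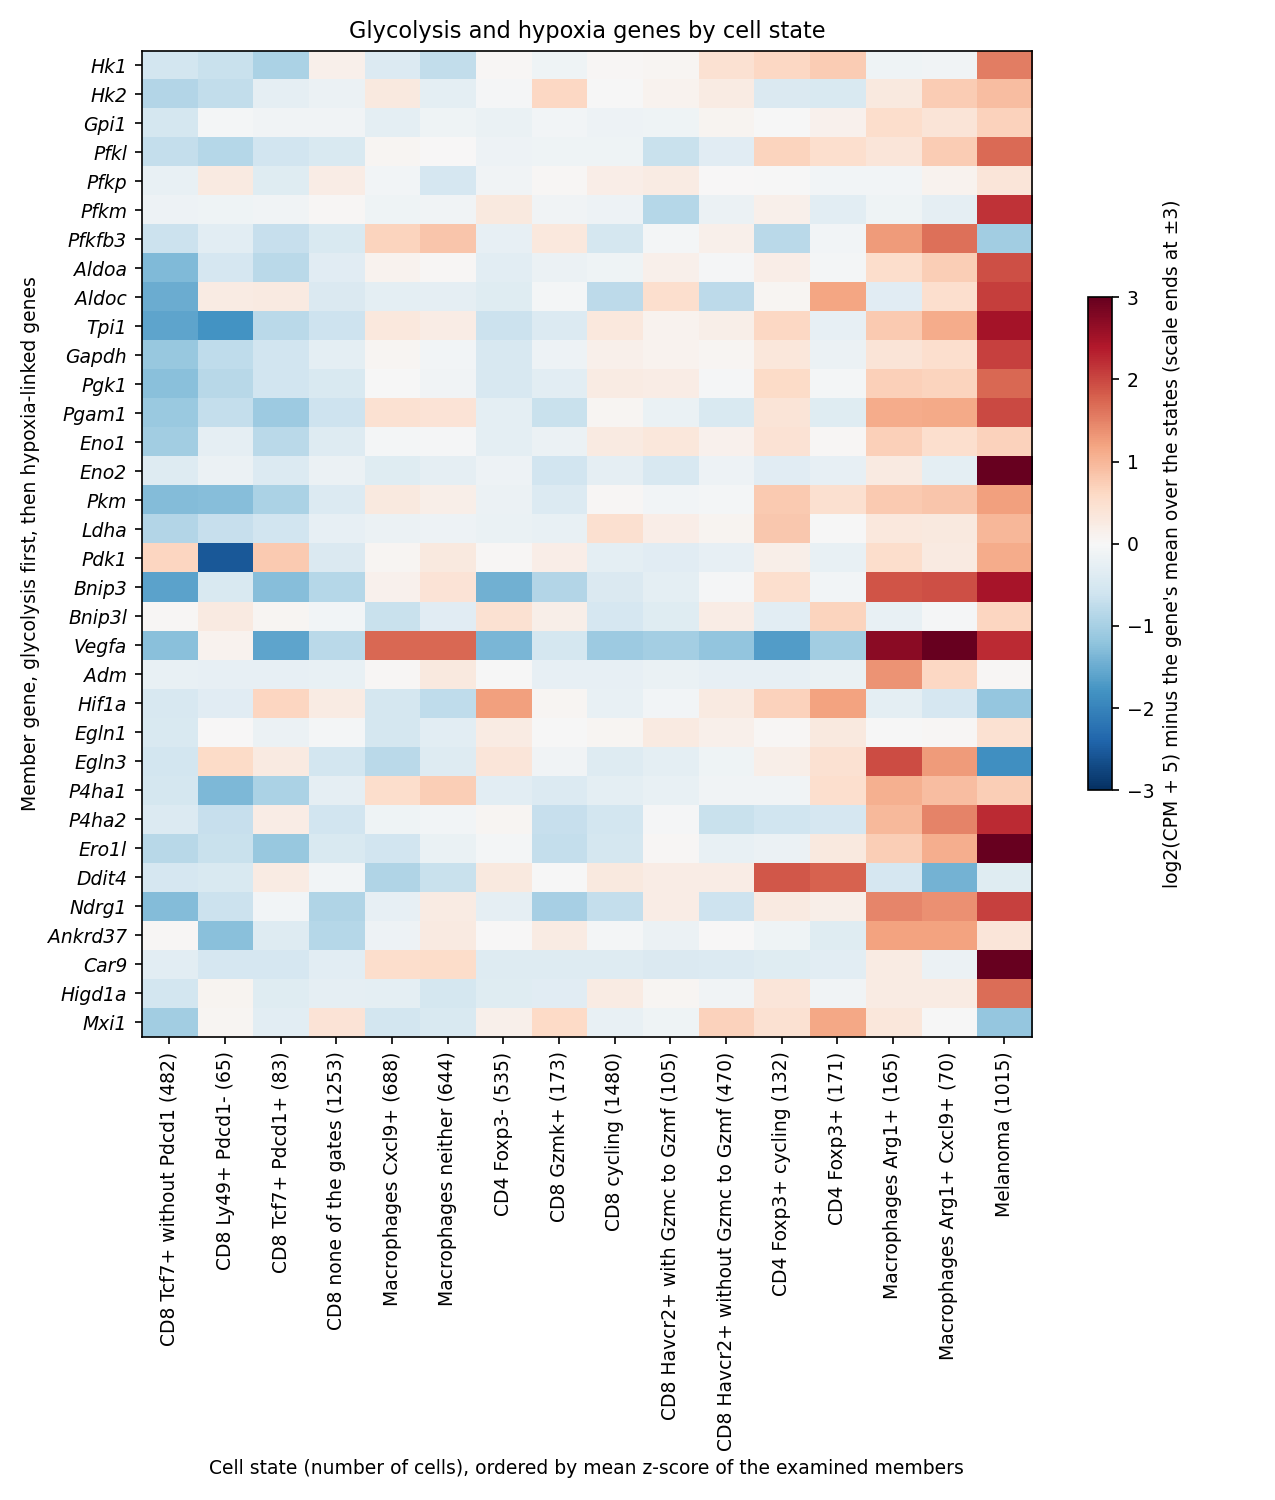
Level of each of the 34 members (rows) in 16 cell states (columns, with cell numbers), as log2(CPM + 5) minus the gene's mean over the states, ordered by the mean z-score of the 29 scored members. Most rows run from blue at the left (Tcf7+ CD8 cells without Pdcd1, score -1.14) to red at the right (melanoma, score 1.43), while Hif1a, Egln3, Mxi1, Pfkfb3 and Ddit4 do not.

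The members did not all share this order. The Pearson correlation of a member's log2(CPM + 5) with the score, over the 16 states, was 0.95 for Pgk1, 0.94 for Aldoa, 0.92 for Pkm and 0.91 for Gapdh, Gpi1 and Tpi1, all enzymes of the glycolytic route. It was 0.89 for Bnip3, a mitophagy receptor, 0.89 for Ero1l, an oxidase of protein folding, and 0.88 for Ndrg1, a stress-response gene. It was -0.19 for Hif1a, 0.08 for Egln3, 0.09 for Mxi1, a Myc antagonist, 0.03 for Ddit4, an inhibitor of mTORC1, and 0.22 for Bnip3l. These members are part of the score, and the states share a library, so the correlations are descriptions. Of 8709 genes ranked, the genes outside the list with the most similar pattern were Gapdh-ps15 (0.92), Gm12070 (0.91), Ctnna1 (0.89), Selenof (0.89), Bsg (0.88), Ugp2 (0.87), Phlda1 (0.87) and Rhoc (0.87). Gapdh-ps15 and Gm12070 match the 3' end of Gapdh.

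Copies limit the values of 3 members. The last 500 bases of the longest coding transcript matched transcripts of other genes at 95% identity over 100 bases or more for Gapdh, Eno1 and Gpi1. Gapdh matched 88 genes, of which 6 were in the table, and these held 42.7% as many counts as Gapdh itself. Eno1 matched 4 genes, of which Eno1b was in the table, with 16.3% as many counts as Eno1. Gpi1 matched Mrpl27, with 15.6% as many. How the authors' counting split such reads is not known, so the levels of these members are uncertain, while the other 31 members had no such match.

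Melanoma-like cells held far more of most members than CD8 T cells. Of 32 members examined, 20 were called higher and 2 lower, in a comparison in which 41.2% of all 8950 genes examined were called in either direction, 21.5% higher and 19.6% lower. The members' median log2 ratio was 1.55, against -0.01 over all genes, and 28 of the 32 were above 0. The called members had the same sign in all 5 hashtags that had 20 or more cells on each side. Fewer transcripts per cell and a smaller share of the counts cannot be told apart on this scale, and the median melanoma-like cell held 193426 counts against 28133.5 in CD8 cells.

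On the glycolytic side, Eno2, the neuronal enolase (chr6:124760053-124769673, minus strand, GRCm38), stood at 124 CPM (123 to 126) in melanoma-like cells and 1.70 CPM (1.51 to 1.91) in CD8 cells. In melanoma-like cells of hashtags A0301, A0302, A0304, A0305 and A0306 it was 96.3, 162, 110, 137 and 121 CPM. In CD8 cells of the 6 hashtags it ran from 0.561 to 2.87 CPM with a median of 1.44, so the groups did not overlap. The log2 ratio was 4.27, and 3.93 to 4.87 in the 5 hashtags. CD8 cells carried melanoma markers at 0.648% of the melanoma level, and that share of the melanoma level of Eno2 is 0.806 CPM, or 47.4% of what CD8 cells held. Whether the remainder came from CD8 cells was not tested.

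Aldoc, a brain-type aldolase, had a log2 ratio of 2.71, Tpi1, triose-phosphate isomerase, 2.44, and Pfkm, the muscle phosphofructokinase, 2.297. Pgam1, Aldoa, Gapdh, Pfkl and Pgk1 followed at 2.16, 2.13, 2.05, 1.97 and 1.72. Gapdh stood at 7082, 8980, 7404, 8049 and 6933 CPM in melanoma-like cells of the 5 hashtags, and between 1634 and 2003 CPM in CD8 cells of the 6. Hk1 (1.48) and Pkm (1.36), the hexokinase and pyruvate kinase at the start and end of the route, were called as well. Ldha (0.78), Gpi1 (0.82), Hk2 (0.96) and Eno1 (0.63) were not called, although each was above 0 in all 5 hashtags. Pfkp, the platelet phosphofructokinase, was nearly level at 0.21 and its hashtags ran from -0.13 to 0.42.

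Among the genes linked to low oxygen, the oxidase gene Ero1l was 1372 CPM in melanoma-like cells and 88.4 CPM in CD8 cells, a log2 ratio of 3.88. In the 5 hashtags it was 1582, 1638, 1373, 1411 and 1188 CPM in melanoma-like cells and at most 96.1 CPM in CD8 cells. Of melanoma-like cells, 98.5% (97.6 to 99.2) had Ero1l at 5 counts, against 20.9% (19.7 to 22.2) of CD8 cells, which differ in depth. After thinning each cell to 10000 counts, which left out 287 shallower CD8 cells and 0 melanoma-like cells, 95.7% against 27.1% held at least 1 count of Ero1l. Every share given after thinning is at 1 count, not at 5, so it is not to be set against the share before thinning.

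Car9, which encodes the surface carbonic anhydrase IX and is widely used as a hypoxia marker, was 64.9, 78.1, 81.4, 57.0 and 39.96 CPM in melanoma-like cells of the 5 hashtags. In CD8 cells it was at or below 0.661 CPM in all 6. The log2 ratio was 3.52. In CD8 cells, 88.4% of the Car9 level of 0.420 CPM is what the melanoma markers' share would give. Car9 was at 5 counts in 41.7% (38.6 to 44.8) of melanoma-like cells, and 29.1% held at least 1 count after thinning, against 0.365% of CD8 cells.

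The angiogenic factor Vegfa was 83.0, 92.8, 89.7, 96.5 and 84.0 CPM in melanoma-like cells of the 5 hashtags and 2.99 to 5.45 CPM in CD8 cells of the 6, a log2 ratio of 3.27. Bnip3 was 375, 372, 369, 407 and 317 CPM against 23.9 to 46.4 CPM, a log2 ratio of 2.99. Neither gene's groups overlapped. Ndrg1 (2.77) and the collagen prolyl hydroxylase subunits P4ha2 (2.76) and P4ha1 (1.05) were also called. So were the mitochondrial protein gene Higd1a (1.61) and Pdk1 (1.29), which restrains the conversion of pyruvate to acetyl-CoA.

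Hif1a and Mxi1 went the other way. Hif1a was 127, 105, 142, 117 and 113 CPM in melanoma-like cells of the 5 hashtags and 230 to 287 CPM in CD8 cells of the 6, a log2 ratio of -1.09. Mxi1 was 28.6 to 44.0 CPM against 85.7 to 124 CPM, a log2 ratio of -1.15. Both were lower in melanoma-like cells of every hashtag. Hif1a transcript does not measure HIF-1 alpha protein, which is set largely by decay.

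**Figure D2:**
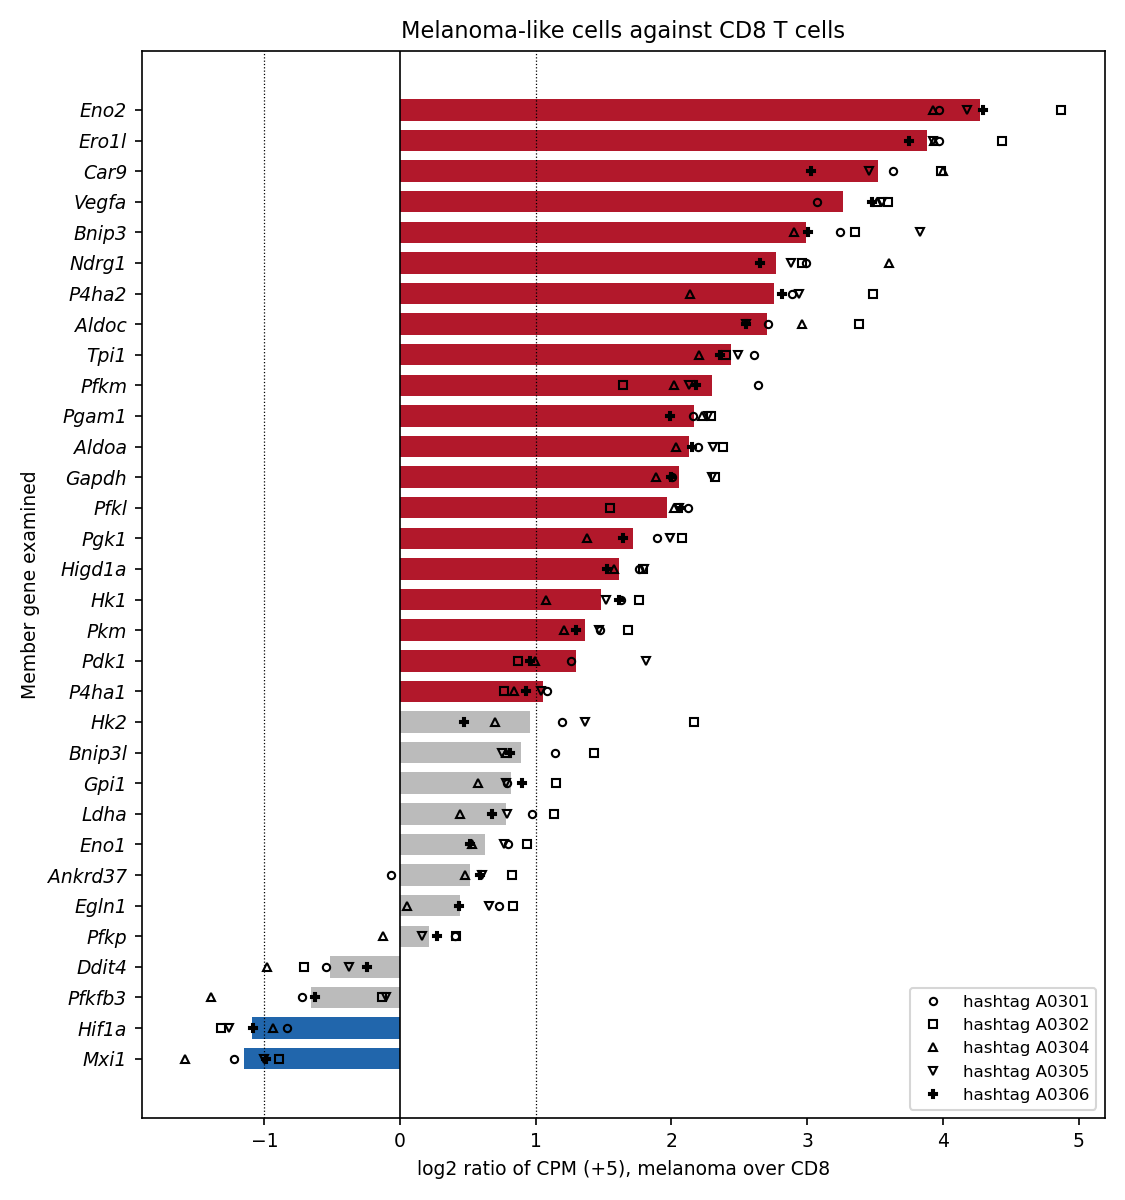
Log2 ratio of CPM (with 5 CPM added) of the 32 members examined, melanoma-like cells over CD8 T cells. Bars are pooled cells, red where called higher (20), blue where called lower (2) and grey where not called, dotted lines mark a size of 1, and black symbols are the 5 hashtags, which lie on the same side of 0 as the bar for every called member.

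The other glycolysis genes split in the same comparison. Of 17 in the table from a list of 18, 11 were examined, 3 were called higher and 2 lower, with a median of 0.70. Ldhb, the other lactate dehydrogenase subunit, was 316 CPM in melanoma-like cells and 5.87 CPM in CD8 cells (log2 ratio 4.88), while the glucose transporter Slc2a3 (1.06 against 75.8 CPM, -3.74) and the lactate exporter Slc16a3 (2.43 against 38.6 CPM, -2.55) were lower. Of 15 pyruvate and pentose genes examined, 5 were called higher, led by the pyruvate carrier Mpc1 (2.05). Of 27 other hypoxia-linked genes examined, 13 were called higher and 3 lower. Selenbp1 (3.48) and Plod1 (2.85), a collagen lysyl hydroxylase, led the former, and the chemokine receptor Cxcr4 (-3.42) and the repressor Bhlhe40 (-2.80) the latter.

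Compared with Arg1+ macrophages, melanoma-like cells were called higher for 9 of the 17 glycolytic members and lower for Egln3, Pfkfb3 and Mxi1. Of 33 members examined, 13 were called higher and 3 lower, where 39.3% of all 9034 genes were called, 20.2% higher and 19.1% lower. The members' median was 0.63 and that of all genes 0.08. Eno2 (3.73), Car9 (2.90), Ero1l (2.63), Aldoc (2.41) and Pfkm (2.28) led. Hk1 (1.66), Tpi1 (1.70), Gapdh (1.65), Aldoa (1.39), Pfkl (1.35), Pgk1 (1.01), Higd1a (1.43) and P4ha2 (1.27) made up the rest. Pgk1 sat just inside the limit, and Bnip3l and Pgam1, at 0.86 and 0.87, just outside. Eno1 was level, at -0.03.

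Egln3, an oxygen-sensing prolyl hydroxylase that is itself a HIF target, was 3.89, 4.08, 2.80 and 1.48 CPM in melanoma-like cells of hashtags A0301, A0302, A0305 and A0306. In Arg1+ macrophages of the same hashtags it was 110, 155, 61.2 and 51.2 CPM, a pooled log2 ratio of -3.80. Pfkfb3, which makes an activator of phosphofructokinase, was 9.91, 11.3, 11.6 and 10.9 CPM against 61.9, 124, 92.4 and 55.2 CPM, a ratio of -2.33. Neither gene's groups overlapped. Mxi1, at 40.33 against 123 CPM, was the third member called lower. Bnip3 (0.58) and Ndrg1 (0.58), by contrast, were above 0 in melanoma-like cells of all 4 hashtags, though not called.

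Outside the list, melanoma-like cells were higher than Arg1+ macrophages for Ldhb (4.57), the collagen lysyl hydroxylase Plod2 (3.69) and Mpc1 (1.89). They were lower for Slc16a3 (-4.42), the myeloid hexokinase Hk3 (-3.98), Slc2a3 (-2.29), Cxcr4 (-3.55) and the haem oxygenase gene Hmox1 (-3.33), each with 1 sign in all 4 hashtags. Nos2 (-4.50), the inducible nitric oxide synthase, was lower in 3 of 4. Of the 3 lists, 3 of 11, 6 of 16 and 8 of 30 genes examined were called higher, and 3, 2 and 8 lower. Melanoma-like cells held the macrophage markers at 9.92% of the macrophage level, whose part in these ratios was not tested.

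Melanoma-like cells fell into cluster 6 (848 cells) and cluster 13 (167 cells), the latter led by interferon-induced genes. This comparison was added after values were seen. None of 31 members examined was called between the clusters, where 2.89% of 8519 genes were. Of the 31, 28 were lower in cluster 13, with a median of -0.23, against -0.04 over all genes. The clusters differed in hashtag make-up. Hashtags A0304, A0305 and A0306 gave 11, 289 and 273 cells of cluster 6, but 29, 12 and 14 of cluster 13. The part of this make-up in the pooled ratios was not tested. Mxi1 (-0.82), Ddit4 (-0.75) and P4ha2 (-0.69) were farthest down, and Ndrg1 was higher, at 0.42. In the 4 hashtags that had 10 or more cells in each cluster, Mxi1 was lower in 4, P4ha2 in 4 and Ddit4 in 3.

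Arg1+ macrophages held more of nearly all members than Cxcl9+ macrophages, and the hypoxia-linked genes showed the largest ratios. Of 29 members examined, 5 were called higher and none lower, while 4.27% of all 8367 genes were called, 2.58% higher and 1.69% lower. Of the 29, 27 were above 0, with a median of 0.51, against -0.02 over all genes. The arms differed in hashtag make-up. Hashtag A0303 gave 14 of the 165 Arg1+ and 219 of the 688 Cxcl9+ cells, and A0304 gave 9 and 87. The part of hashtag make-up in the pooled ratios was not tested.

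Egln3 (chr12:54178981-54203860, minus strand) was 98.0 CPM (92.6 to 104) in Arg1+ macrophages and 10.2 CPM (9.45 to 11.0) in Cxcl9+ macrophages. In hashtags A0301, A0302, A0305 and A0306, the Arg1+ cells held 110, 155, 61.2 and 51.2 CPM. In hashtags A0301, A0303, A0304, A0305 and A0306, the Cxcl9+ cells held 17.9, 6.54, 14.2, 11.5 and 10.1 CPM. The groups did not overlap, although A0302 stood only on the Arg1+ side and A0303 and A0304 only on the Cxcl9+ side. The pooled log2 ratio was 2.76. It lay above the 2.32, 2.01 and 1.89 of the 3 hashtags that had 20 or more cells on each side. Egln3 was at 5 counts in 31.5% (24.5 to 39.2) of Arg1+ and 6.69% (4.94 to 8.82) of Cxcl9+ macrophages. After thinning, 33.7% and 5.56% held at least 1 count.

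Bnip3 (chr7:138890836-138909519, minus strand) was 266, 279, 229 and 188 CPM in Arg1+ macrophages of the same 4 hashtags and 98.9, 65.8, 42.7, 71.3 and 50.3 CPM in Cxcl9+ macrophages of the 5. Ndrg1 was 174, 254, 115 and 180 CPM against 56.4, 44.7, 57.1, 57.3 and 35.2 CPM. Both were higher in every Arg1+ sample than in any Cxcl9+ sample, with pooled log2 ratios of 1.75 and 1.70. Ero1l was 192, 349, 225 and 222 CPM against 120, 77.2, 67.5, 60.5 and 97.6 CPM, a ratio of 1.32. Ankrd37, an ankyrin repeat gene known as a HIF target, was 41.7, 30.4, 15.6 and 16.8 CPM against 8.31, 9.02, 6.01, 11.5 and 8.499 CPM, a ratio of 1.37. Its ratio was 1.81 in hashtag A0301 but 0.32 and 0.69 in A0305 and A0306, so the median over the 3 hashtags was under the limit.

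Vegfa (0.99) and Mxi1 (0.91) were the nearest members outside the limit. Vegfa was above 0 in all 3 hashtags, at 1.32, 1.37 and 0.87. The glycolytic enzymes were higher by smaller amounts: Gpi1 0.81, Eno1 0.78, Pgk1 0.74, Pgam1 0.65, Ldha 0.48, Pkm 0.48, Tpi1 0.48, Aldoa 0.43 and Gapdh 0.35, each with the same sign in all 3 hashtags. Eno1 was 1196, 1095, 999 and 1110 CPM in Arg1+ macrophages of 4 hashtags and 837, 542, 548, 606 and 606 CPM in Cxcl9+ macrophages of 5, without overlap. Hk2 (0.01) and Aldoc (-0.03) were level, with both signs among their hashtags. Pfkp was level over all cells, at 143.7 against 144.1 CPM, and slightly lower in each of the 3 hashtags.

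**Figure D3:**
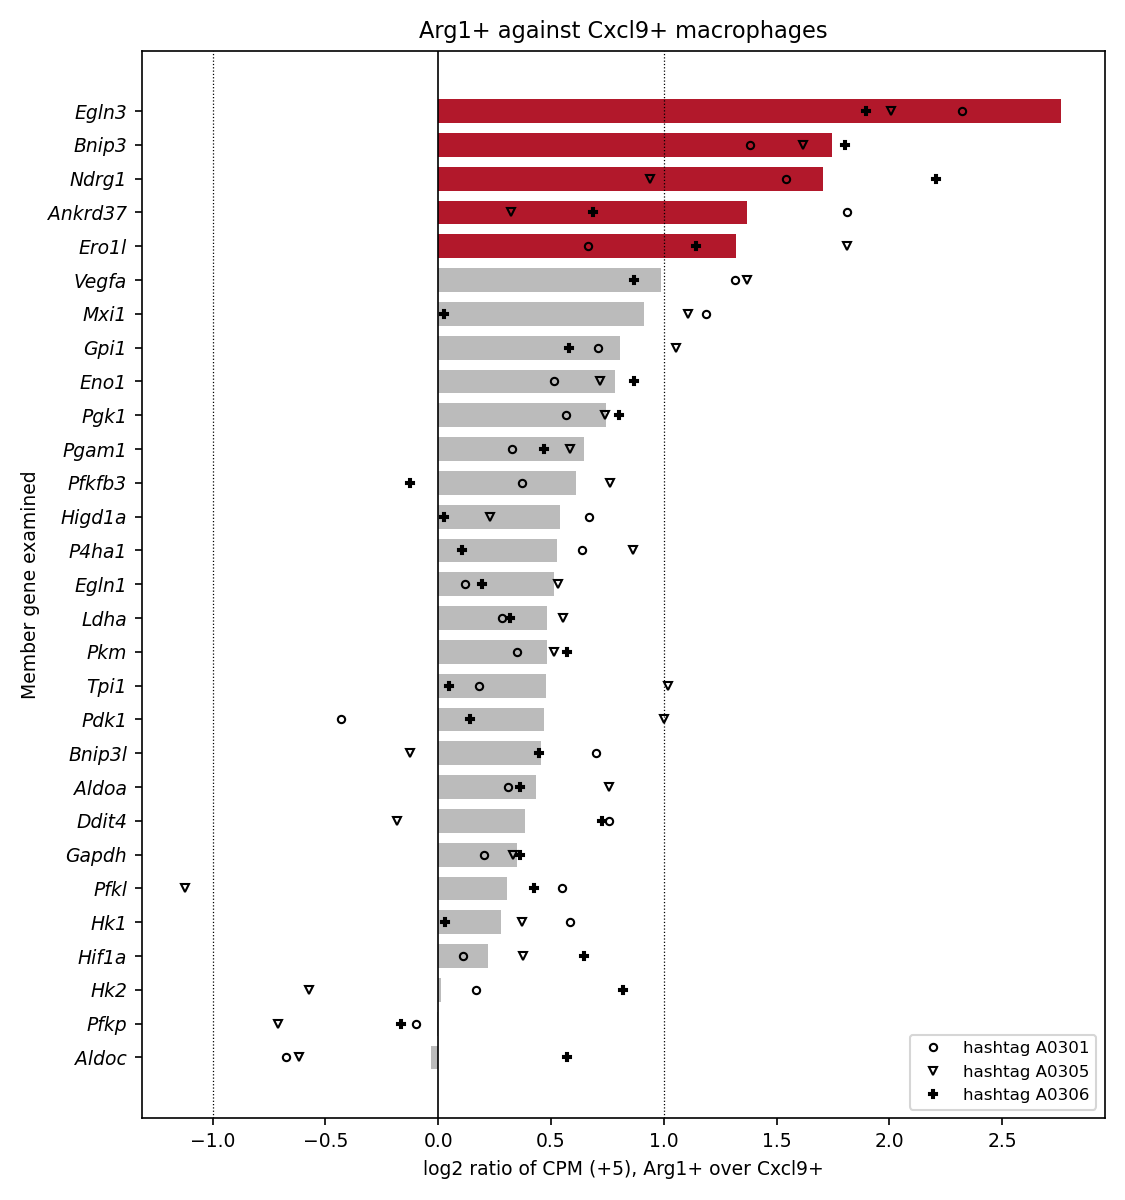
Log2 ratio of CPM (with 5 CPM added) of the 29 members examined, Arg1+ over Cxcl9+ macrophages. Bars are pooled cells, red where called higher (5) and grey where not called, dotted lines mark a size of 1, and black symbols are the 3 hashtags that had 20 or more cells on each side, which are all above 0 for Egln3, Bnip3, Ndrg1, Ankrd37 and Ero1l.

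Marker genes of other cells were set beside these values. Arg1+ and Cxcl9+ macrophages carried the T cell markers at 2227 and 2349 CPM and the melanoma markers at 220 and 254 CPM. The 6 neutrophil markers were higher in Arg1+ macrophages, at 149 against 69.0 CPM. That is 0.449% of the neutrophil level, and at that share neutrophils would give 1.38 CPM of Egln3 and 3.69 CPM of Ero1l. Arg1+ macrophages held 98.0 CPM of Egln3 and 217 CPM of Ero1l.

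Of 8 other glycolysis genes examined, 2 were called higher, the lactate exporter Slc16a3 (154 against 57.2 CPM, 1.35) and the glucose transporter Slc2a1 (206 against 87.2 CPM, 1.19). The glucose transporter Slc2a3 was level, at 0.05. Of 15 pyruvate and pentose genes examined none was called, with a median of -0.08. Of 27 other hypoxia-linked genes examined, 6 were called higher, among them the lipid droplet genes Plin2 (1.77) and Hilpda (1.69) and Hmox1 (1.60). Hmox1 was 3.07 to 3.77 in the 3 hashtags, above its pooled ratio. Nos2 was called at 1.24 but was higher in only 1 of 3 hashtags.

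Few members were called between Havcr2+ and Tcf7+ Pdcd1+ CD8 T cells. Of 26 members examined, 2 were called higher and 1 lower, where 10.6% of all 7303 genes were called, 6.81% higher and 3.78% lower, so the share of members called, in either direction, was close to that of all genes. The median of the 26 was 0.62, against 0.04 over all genes, with 21 above and 5 below 0. The members below the examination limit were Pfkm, Aldoc, Eno2, Vegfa, Adm, P4ha2, Ankrd37 and Car9, and these stayed below it in all 5 CD8 comparisons.

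Hk1 was 93.0 CPM (88.8 to 97.4) in Havcr2+ cells and 33.9 CPM (27.4 to 41.6) in Tcf7+ Pdcd1+ cells, a log2 ratio of 1.33. Hk1 in the 83 Tcf7+ Pdcd1+ cells rested on 92 counts, 70.7% of them from 5 cells. In Havcr2+ cells of hashtags A0301, A0303, A0304, A0305 and A0306 it was 90.1, 103, 131, 108 and 81.8 CPM. No hashtag had 20 Tcf7+ Pdcd1+ cells, and with 5 or more cells the ratio was 0.71 to 1.58 in 3 hashtags. Bnip3 was 56.6 CPM against 22.1 CPM, a ratio of 1.18, but its 60 counts in Tcf7+ Pdcd1+ cells included 36.7% from 1 cell, and 1 of the 3 hashtags had a ratio of -0.50. Averaging over cells in place of summed counts gave 0.93 for Hk1 and 0.72 for Bnip3, and left no member called. After thinning to 10000 counts per cell, Hk1 was at 0.88 and Bnip3 at 0.73. Pdk1, the other called member, was then under the examination limit, so none of the 3 calls was kept.

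Pdk1 was lower in Havcr2+ cells, at 19.2 CPM (17.3 to 21.3) against 45.0 CPM (37.4 to 53.7), a log2 ratio of -1.05. Only 27 of 575 and 8 of 83 cells had 5 counts of Pdk1, and 5 cells held 67.2% of its counts in the Tcf7+ Pdcd1+ arm. Without the cells of hashtag A0302, which were 2 of the 83 Tcf7+ Pdcd1+ cells, the ratio was -0.82. Eno1 (0.999), Ero1l (0.98) and Tpi1 (0.96) sat just under the limit. Eno1 was 734 CPM (722 to 747) against 365 CPM (342 to 388), and its ratio was 1.11 to 1.66 in the 3 hashtags with at least 5 cells. Hif1a, by contrast, was 317 CPM in Havcr2+ and 434 CPM in Tcf7+ Pdcd1+ cells, a ratio of -0.45.

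Other genes of these pathways had larger ratios in the same comparison. Slc16a3 was 50.9 CPM in Havcr2+ cells and 4.80 CPM in Tcf7+ Pdcd1+ cells (2.51), and Slc2a3 was 121 against 57.2 CPM (1.02), the 2 genes called of 8 examined. Of 14 pyruvate and pentose genes none was called. Of 20 other hypoxia-linked genes examined, Hilpda (2.20), Plod2 (1.497) and Insig2 (1.07) were called higher and Cxcr4 (-2.57) lower.

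Against Gzmk+ CD8 cells, no member was called in Havcr2+ cells. The median of 26 members was 0.22, against -0.02 over all genes, and 3.75% of 7470 genes were called, 2.06% higher and 1.69% lower. Bnip3 (0.79), Ndrg1 (0.63), Ero1l (0.57) and Tpi1 (0.56) were the members farthest from 0. Only hashtag A0301 had 20 cells in both arms, with 0.25, 0.26, -0.22 and 0.36 for these genes, so Ero1l had the opposite sign there. Eno3 (1.30), the muscle enolase, was the 1 gene called of 8 other glycolysis genes, and Cxcr4 (-2.07) the 1 called of 20 other hypoxia-linked genes.

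Tcf7+ Pdcd1+ cells held more Hif1a than Tcf7+ cells without Pdcd1. Hif1a was 434 CPM (410 to 460) against 197 CPM (189 to 206), a log2 ratio of 1.12, and was at 5 counts in 49.4% (38.2 to 60.6) against 23.7% (19.9 to 27.7) of cells. In 3 hashtags that had 5 or more cells on each side the Hif1a ratio was 0.42 to 1.62. Ndrg1 was called as well, at 60.5 against 23.0 CPM and a ratio of 1.23, but 69.5% of its 164 counts in Tcf7+ Pdcd1+ cells came from 5 cells, and its hashtags ran from -1.02 to 0.99. These were the 2 calls among 23 members examined, against 5.91% of 6053 genes (2.15% higher, 3.77% lower), with a median of 0.30 for the members and -0.01 for all genes. With a gate of 10 counts neither was called, since Hif1a was at 0.92 and Ndrg1 was under the examination limit. Tpi1 (0.78) and Ddit4 (0.76) came next, but Ddit4 was lower in 2 of the 3 hashtags, with a median of -1.20. Slc2a3 (1.39), 1 of 5 other glycolysis genes, and Fam162a (1.07) were called higher, and Arnt (-1.36), the partner of HIF-1 alpha, lower.

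**Figure D4:**
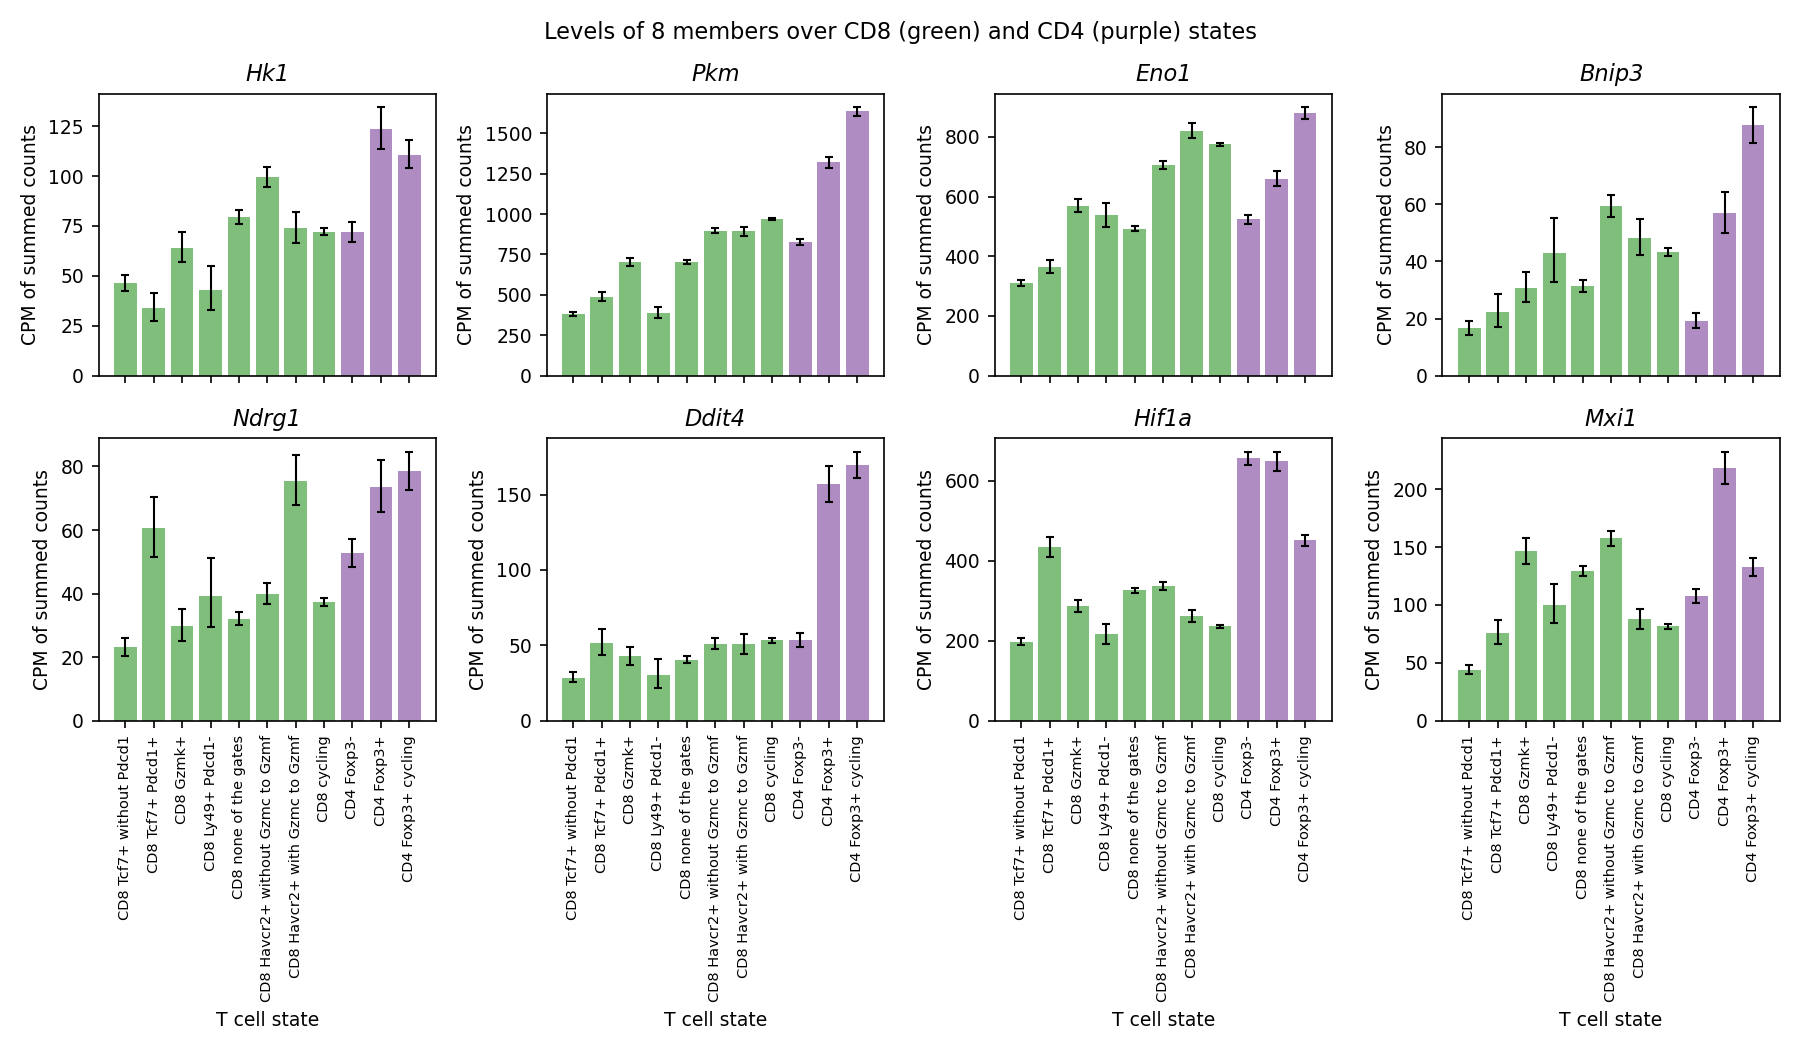
CPM of summed counts of 8 members in 8 CD8 states (green) and 3 CD4 states (purple), with exact 95% Poisson intervals that cover counting error only. Pkm and Eno1 are lowest in Tcf7+ CD8 cells without Pdcd1 (380.0 and 311.4 CPM), Hif1a is highest in the Foxp3- and Foxp3+ CD4 cells (656 and 648 CPM), and Ddit4 stands out in both Foxp3+ states (157 and 169.5 CPM).

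No member was called between cycling and Havcr2+ CD8 cells (26 examined, median -0.13, all genes -0.05, 5.61% of 7989 genes called, 4.46% higher and 1.15% lower). Mxi1 was 81.4 CPM in cycling and 140 CPM in Havcr2+ cells, a log2 ratio of -0.75, and was lower in all 5 hashtags. Pgam1 (0.44) was higher in all 5 hashtags, while Pfkfb3 (-0.63) and Bnip3l (-0.59) had mixed signs. Hk1, Hif1a and Bnip3 were also lower in cycling cells of all 5 hashtags, at -0.35, -0.42 and -0.35. Cycling cells were deeper, with a median of 55326 counts against 30142.

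With Gzmc to Gzmf against without them, no member of 26 was called (median -0.05, all genes -0.04, 2.34% of 7011 genes called, 0.67% higher and 1.67% lower). Ndrg1 (0.84), Mxi1 (-0.81), Bnip3l (-0.57) and Hk1 (-0.41) were farthest from 0 over all cells. In the 6 hashtags that had 5 or more cells on each side, Ndrg1 was higher in 6, from 1.18 to 3.73 with a median of 2.18. Mxi1 was lower in 5 of them, and Bnip3l and Hk1 in 4. Pfkl, named after its values were seen, was -0.33 over all cells and lower in 6 hashtags, with a median of -1.34. The median of all genes over these hashtags was -0.23. No other glycolysis or pyruvate gene was called in either comparison. Cxcr4 (-1.45) was the 1 hypoxia-linked gene called, in cells with Gzmc to Gzmf.

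Foxp3+ CD4 cells held more Ddit4, Aldoc and Bnip3 than Foxp3- CD4 cells outside the cycle. These 3 were called higher among 27 members examined, and none lower, where 7.62% of 6564 genes were called 3.72% higher and 3.9% lower. The members' median was 0.33, against 0.01 over all genes, and 23 of 27 were above 0. Ddit4 was 157 CPM (145 to 169) against 53.3 CPM (49.0 to 57.9), a log2 ratio of 1.47, and was at 5 counts in 29.2% (22.5 to 36.7) against 7.29% (5.23 to 9.83) of cells. After thinning, 33.7% of 166 against 11.7% of 443 cells held at least 1 count of Ddit4. In hashtag A0301, the 1 hashtag with 20 cells in both arms, Ddit4 was 171 against 65.0 CPM. Foxp3- cells of A0303, A0305 and A0306 had 34.5, 25.6 and 22.4 CPM of Ddit4. In hashtags with at least 5 cells, the ratio of Ddit4 was higher in 4 of 5, from -0.27 to 3.09.

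Aldoc was 37.4 CPM (31.9 to 43.6) against 9.68 CPM (7.89 to 11.8), a ratio of 1.53. It was at 5 counts in only 14 of 171 and 10 of 535 cells. The top 5 cells held 44.8% of its counts in the Foxp3+ arm and 53.9% in the Foxp3- arm. Bnip3 was 56.9 CPM against 19.1 CPM, a ratio of 1.36, with 65.6 against 5.46 CPM in hashtag A0301 and ratios from -2.09 to 2.76 in 5 hashtags with at least 5 cells. Mxi1, at 218 against 108 CPM, had a ratio of 0.99 and was above 0 in all 5 of those hashtags (0.80 to 4.08). P4ha1 (0.83), Hk1 (0.75) and Pkm (0.67) were below the limit, and Hif1a was level, at 648 and 656 CPM. Slc16a3, at 167 against 23.1 CPM (2.62), was the 1 gene called of 6 other glycolysis genes. Bhlhe40 (-1.38) was the 1 called of 18 hypoxia-linked genes, and none of 14 pyruvate and pentose genes was called.

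The T cell markers were alike in the Foxp3 arms, at 6250 and 6349 CPM. Melanoma markers were 247 and 297 CPM. Plasma cell genes stood at 2448 CPM in Foxp3- cells and 3.40 CPM in Foxp3+ cells. A single Foxp3- cell had 20 or more plasma cell counts. Without it 4 members were called, the 3 above among them.

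Adm, which encodes adrenomedullin, was under the examination limit in all 9 comparisons. It was 10.3 CPM (8.54 to 12.2) in Arg1+ macrophages and at or below 4.1 CPM in the other 15 states, with 5 counts in 3.03% (0.991 to 6.93) of Arg1+ macrophages.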

How the data were processed

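One capture of CD3-enriched cells from B16F10 tumours gave an mRNA library and a hashtag library. The deposited files hold counts per gene or hashtag and barcode. Per the submitters' processing notes, cutadapt 2.10, Bowtie2 2.3.4.1 and 2.4.2, R 3.5.3 and the build GRCm38 were used, and how counting was done is not stated. Counts looked like reads rather than molecules: the median non-zero value was 7.

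Barcodes with fewer than 500 genes (279) or over 25% mitochondrial counts (675) were left out. Clusters (scanpy 1.11.5, leidenalg 0.10.2) were built from 3000 variable genes without the members and named from marker lists, by a rule set after the data were seen. A doublet caller marked 0 cells, and whether its scores find doublets in these data was not tested. Removing the top 5% of its scores was an alternative. Arms were summed to counts per 1000000 (CPM), with a pseudocount of 5 CPM. There are no replicates and no tests. Gapdh and other members were checked for copies with blastn 2.17.0. On simulated counts for Arg1+ against Cxcl9+ macrophages (8261 genes examined), 97 of 100 genes changed 3-fold, 100 of 100 changed 6-fold and 0 of 8061 unchanged genes were called. The simulated counts came from the means of the Cxcl9+ arm, without hashtag differences, several reads per molecule or carried-over RNA. They check the calculation only and give no error rate for the real calls. Smaller arms, such as the CD8 states, were not simulated.

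The members and lists were chosen with earlier results of these data known. Named were every called member, the 4 members with the largest ratios in each comparison, at most 4 called genes per other list, and the 8 genes most alike in pattern. Further members are named to fill out the pathway. Exact 95% intervals cover counting error only. Alternatives were another pseudocount, no filter, a gate of 10 counts, thinning to 10000 counts and means over cells. Others kept the members in the clustering, or left out hashtags, likely doublets or cells with carried-over RNA.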

Additional observations from a re-analysis of the deposited data

How the results depend on the processing

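No paired test was run, and the labels give no replicate numbers and no group for the hashtags. The ratios within each hashtag, which set both arms side by side, are given as a description. Between melanoma-like and CD8 cells, 21 to 24 members were called over all settings, and between cycling and Havcr2+ CD8 cells 0. For Havcr2+ against Tcf7+ Pdcd1+ cells, 3 members became 5 with a pseudocount of 1 CPM and 6 with a gate of 10 counts, and both kept the 3. With means over cells 0 were called. After thinning, which left 22 members examined, 1 was called, and 0 of the 3 were kept, with Pdk1 under the examination limit. Without T cells holding melanoma or macrophage counts 7 were called, with 1 of the 3 kept. The median over hashtags with 5 or more cells, a setting chosen after seeing the data, called 13, with 2 of the 3 kept. The median of all genes was 0.25 there, against 0.04 in the main setting. For Havcr2+ against Gzmk+ cells, 0 became 1 after thinning. In A0301, the 1 hashtag with 20 or more cells in both arms, 5 were called (2 higher, 3 lower). Over hashtags with 5 or more cells 5 were called (all higher). The median of all genes was 0.20 there, against -0.02. For Tcf7+ cells with against without Pdcd1, 2 higher became 1 after thinning, where Ndrg1 was under the examination limit. Over hashtags with 5 or more cells 8 were called (3 higher, 5 lower, so the balance turned). The median of all genes was -0.11 there, against -0.01. With a gate of 10 counts there were 2 other calls, 1 higher and 1 lower, and 0 shared. For cells with against without Gzmc to Gzmf, 0 became 1 without the filter and 1 without cells holding melanoma or macrophage counts. Over hashtags with 5 or more cells 8 were called (1 higher, 7 lower). The median of all genes was -0.23 there, against -0.04. For Foxp3+ against Foxp3- cells, 3 became 6 with means over cells and 1 after thinning, where 19 members were examined, against 27. Aldoc and Bnip3 were then under the examination limit, while Ddit4 was at 1.65. In A0301, the 1 hashtag with 20 or more cells in both arms, 8 were called (6 higher, 2 lower). Over hashtags with 5 or more cells 7 were called (4 higher, 3 lower). The median of all genes was -0.09 there, against 0.01. For Arg1+ against Cxcl9+ macrophages, 5 became 9 with means over cells. For melanoma-like cells against Arg1+ macrophages 16 became 10 after thinning, where Pgk1 fell to 0.92 and other members were under the examination limit. The cause of the shifts was otherwise not tested, and the share of all genes called in these settings was not counted. Leaving out each hashtag in turn gave 3 to 4, 0 to 0, 2 to 2, 0 to 0, 0 to 0, 3 to 3, 5 to 7, 22 to 23 and 15 to 16 called members, in the order of Havcr2+ against Tcf7+ Pdcd1+, against Gzmk+, Tcf7+ with against without Pdcd1, cycling, Gzmc to Gzmf, Foxp3, macrophages, melanoma against CD8 and melanoma against macrophages. The 83 Tcf7+ Pdcd1+ cells limit what can be read from low members: Bnip3 was at 5 counts in 3 of them.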

Other observations

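Neutrophil-like cells, 139 in number and in no comparison, held much Egln3 and Pfkfb3. These cells were shallow, with a median of 9287 counts. They carried macrophage markers at 4995 CPM, 34.7% of the macrophage level, and T cell markers at 1215 CPM. The part of carried-over RNA in the levels below was not tested. Egln3 was 307.5 CPM (281 to 336) and was at 5 counts in 21.6% (15.1 to 29.4) of these cells, and Pfkfb3 was 204 CPM (182 to 227). Ero1l was 822 CPM, Bnip3 283 CPM, P4ha1 153 CPM, Hk2 137 CPM, Vegfa 124 CPM and Ankrd37 68.1 CPM. Adm, which was under the limit elsewhere, was 15.2 CPM (9.83 to 22.4), from 25 counts. No count of Eno2, Car9, Aldoc, Pfkm or P4ha2 was found in neutrophil-like cells.

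Pairs of members were compared from cell to cell after thinning to 10000 counts. Over 1015 melanoma-like cells, Spearman's rho had a median of 0.21 over 406 pairs of 29 members, and the highest pairs were Aldoa with Gapdh (0.73) and Gapdh with Bnip3 (0.68). In 163 Arg1+ macrophages, the highest was 0.57 for Gapdh with Pgk1, with a median of 0.14 over 300 pairs. In 565 Havcr2+ CD8 cells the highest was 0.38 for Gapdh with Eno1, with a median of 0.08 over 136 pairs. The cells share a library and pairs of other genes were not compared, so these are descriptions.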
